A study of Mus musculus with 6 samples.

Results

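Cultures of cells isolated from mouse testis were compared, across all genes, with cultures of mouse embryonic fibroblasts. The libraries were taken by their titles, 2 of LC (Leydig cells prepared from testicular tissue of KM mice, at passage 0 or 1) and 2 of MEF (fibroblasts of KM embryos of 12.5 or 13.5 days post coitum, at passages 3 to 5), which makes 4 of the 6 libraries of the series. The remaining 2 libraries are CiLC, fibroblasts given small molecules, and they entered only the shared estimate of spread. All cells were grown on 90-mm dishes at 37°C in 5% CO2, and 1 µg of total RNA went into each BGISEQ-500 library. The groups therefore differ in tissue and in passages at the same time, and may differ in age and in sex. These factors cannot be told apart. The age of the mice that gave the testes is not in the labels. The labels do not say how Leydig cells were enriched. Nor do they say that the 2 LC or 2 MEF libraries are from different animals or dishes, so a p-value here reflects only how far these libraries lie apart, and that distance may be technical.

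Leydig cells lie between the seminiferous tubules. They take up or make cholesterol, carry it into mitochondria with Star, cut its side chain with Cyp11a1, oxidise the product with a 3-beta-hydroxysteroid dehydrogenase and turn it into androgens with Cyp17a1 and later enzymes. Nr5a1, also called steroidogenic factor 1, is a nuclear receptor that switches on this set of genes in gonads and adrenals, and luteinizing hormone drives it through the receptor Lhcgr. The tubules themselves hold Sertoli cells, which nurse the germ cells, and are wrapped by contractile peritubular myoid cells. Macrophages and vessels fill the rest of the interstitium.

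Total estimated reads were 18.7 and 18.6 M in LC and 18.6 and 18.9 M in MEF, and the libraries of a group differed by more than sampling noise (chi-square per degree of freedom of 2.94 in LC and 2.77 in MEF). Levels are given as CPM, reads per 1 M after scaling for library size and composition, for each library in turn. Log2 fold changes are LC minus MEF, and a gene is called at an adjusted p of 0.05 by edgeR's quasi-likelihood test over all genes tested.

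Most genes differed between the cultures. Of 14581 genes tested, 5203 were higher in LC (35.7%) and 5108 lower (35.0%), together 70.7%. Changes of at least 2-fold were called for 2091 genes higher in LC (14.3%) and 1875 lower (12.9%), together 27.2%. Both LC libraries lay above both MEF libraries for 41.8% of the genes tested. The median log2 fold change of all genes tested was -0.01. Each count of a gene list below is to be read against these shares, and its median against this median. A member that is near 0 in one group can pass the filter on low counts only through the other, and then had to differ, so the counts describe tested members only. As a stricter alternative, a biological coefficient of variation of 0.4, more than these libraries showed, was imposed on every gene. With upper quartile scaling the median of all genes moved by -0.10, and all values below are relative to the scaling used here.

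**Figure D1:**
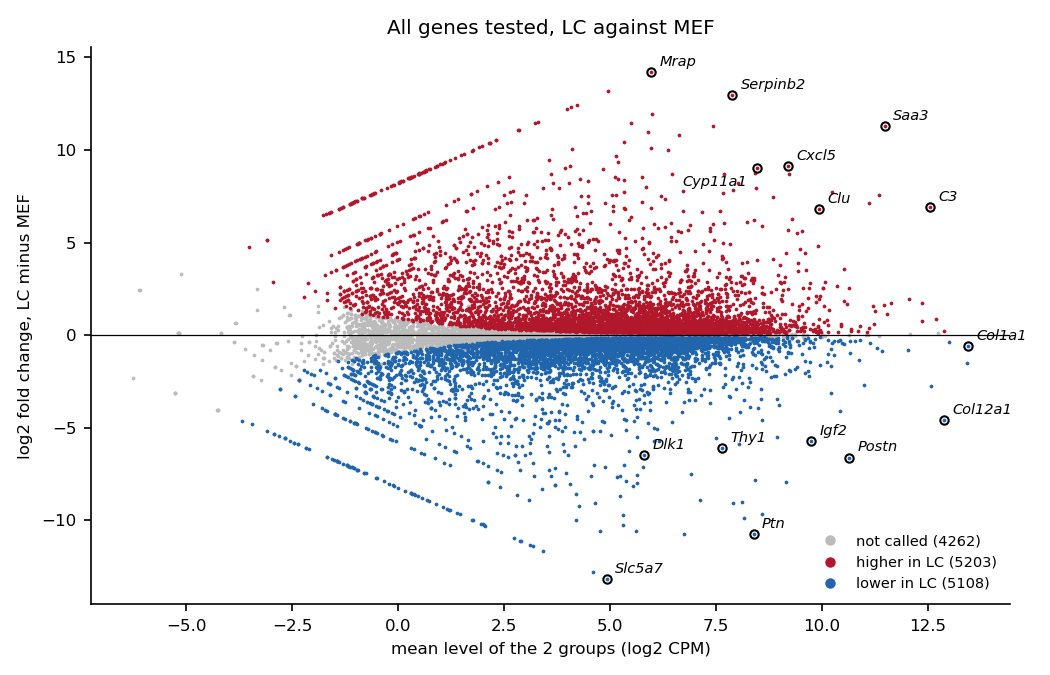
Log2 fold change (LC minus MEF) of each gene tested against the mean level of the 2 groups in log2 CPM, with genes called higher in red, called lower in blue and not called in grey; tested genes with no read in LC and MEF are not drawn. Saa3, C3 and Clu stand out among abundant genes higher in LC, and Col12a1, Postn and Igf2 among abundant genes lower in LC; the slanting lines are genes with 0 or very few reads in one group.

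Cyp11a1, Star, Nr5a1 and Mrap, listed here for Leydig cells, were far higher in LC. Cyp11a1 (NCBI gene 13070), the side-chain cleavage enzyme, stood at 718 and 693 CPM in the LC libraries and at 1.42 and 1.25 CPM in MEF (log2 fold change 9.04 ± 0.19 SE, edgeR adjusted p = 2.95e-27). Star (20845) stood at 184 and 180 CPM in LC and 5.09 and 5.47 in MEF (log2 fold change 5.11 ± 0.10 SE, adjusted p = 9.12e-25). Nr5a1 (26423) reached 164 and 167 CPM in LC against 0.157 and 0.156 in MEF (log2 fold change 9.98 ± 0.53 SE). Mrap (77037), a small protein that carries melanocortin receptors to the cell surface, had 127 and 124 CPM in LC and no read in MEF, at least 1602-fold higher against a floor of 3 reads over the MEF group. For each of these genes both LC libraries lay above both MEF libraries, and the gap was many times the distance between libraries of a group. In bulk RNA, a larger share of cells of a type and more RNA per cell cannot be told apart. Which cells of the cultures carry Nr5a1 or Mrap was not tested.

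Other genes of the steroid pathway rose with them. Of 17 listed genes, 13 could be tested and all 13 tested were higher in LC, 12 of them at least 2-fold (median log2 fold change 3.17). With the imposed spread of 0.4, 10 were called higher. Hsd3b1, the 3-beta-hydroxysteroid dehydrogenase, stood at 36.5 and 34.1 CPM against 0.891 and 0.520 in MEF (log2 fold change 5.63 ± 0.27 SE), although 3 of its 4 values are not whole and it has close relatives. Fdx1 and Fdxr, which pass electrons to Cyp11a1, rose by 3.57 ± 0.10 SE and 3.17 ± 0.10 SE on the log2 scale. Por, the electron donor of microsomal P450 enzymes, went from 79.6 and 82.1 to 271 and 283 CPM. Hsd11b1, which regenerates active glucocorticoid, went from 0.157 and 0.0521 to 28.9 and 26.4 CPM.

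Cyp17a1 and Hsd3b6, enzymes of androgen synthesis in adult Leydig cells, were nearly without reads, and so was the receptor Lhcgr. Cyp17a1 had 1 read in all over the 2 LC libraries and 1 over MEF. Lhcgr had 5 reads over LC and 1 over MEF, a ratio of 5.59 with a counting interval of 0.626 to 264 (exact binomial, 95%, counting error only). Hsd3b6, the 3-beta-hydroxysteroid dehydrogenase of adult Leydig cells, had 12 reads over LC after rounding and 0 over MEF, at least 4.47-fold higher. Its values in LC before rounding, 7.72 and 3.56, are not whole, so this fold is less certain. Insl3, a peptide hormone of Leydig cells, was called higher in LC at 6.03 and 7.06 CPM against 0 and 1.93 (log2 fold change 2.75 ± 0.54 SE, adjusted p = 2.04e-05), but DESeq2 did not call it (adjusted p = 0.306) and 2 of its 4 values are not whole. Nr0b1 had 3 reads over LC and 0 over MEF, and Klk1b24 1 and 0. Of the genes listed here for the labelled cell, Nr5a1, Star, Cyp11a1 and Mrap were thus present in LC, and Lhcgr, Cyp17a1 and Hsd3b6 were near 0.

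Of 20 tested members of the Leydig identity list, 14 were higher, 4 lower and 2 not called (median log2 fold change 2.66), and with the imposed spread of 0.4, 13 were higher and 1 lower. The members with the clearest rise included transcription factors of interstitial precursor cells. Tcf21, a factor of mesenchymal precursors, stood at 72.7 and 66.2 CPM against 0.315 and 0.0521 in MEF. Gata4 went from 3.83 and 3.96 to 189 and 191 CPM, and Nr2f2, known as COUP-TFII, from 52.7 and 52.0 to 304 and 318. Pdgfra, the platelet-derived growth factor receptor of stromal precursors, was the most abundant member in LC at 1760 and 1814 CPM, against 313 and 292 in MEF (log2 fold change 2.56 ± 0.05 SE). Ptch1, the receptor for the hedgehog ligand that Sertoli cells secrete, rose by 2.81 ± 0.08 SE on the log2 scale.

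The members that fell included Dlk1, an imprinted surface protein of fetal and progenitor cells, which fell from 107 and 113 CPM in MEF to 1.10 and 1.35 in LC (log2 fold change -6.48 ± 0.22 SE). Igf1 (398 and 422 CPM in LC, 543 and 506 in MEF) and Nr4a1 (182 and 188 against 242 and 259) were lower in LC by less than 2-fold. The hedgehog antagonist Hhip was below 1 CPM in all 4 libraries.

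**Figure D2:**
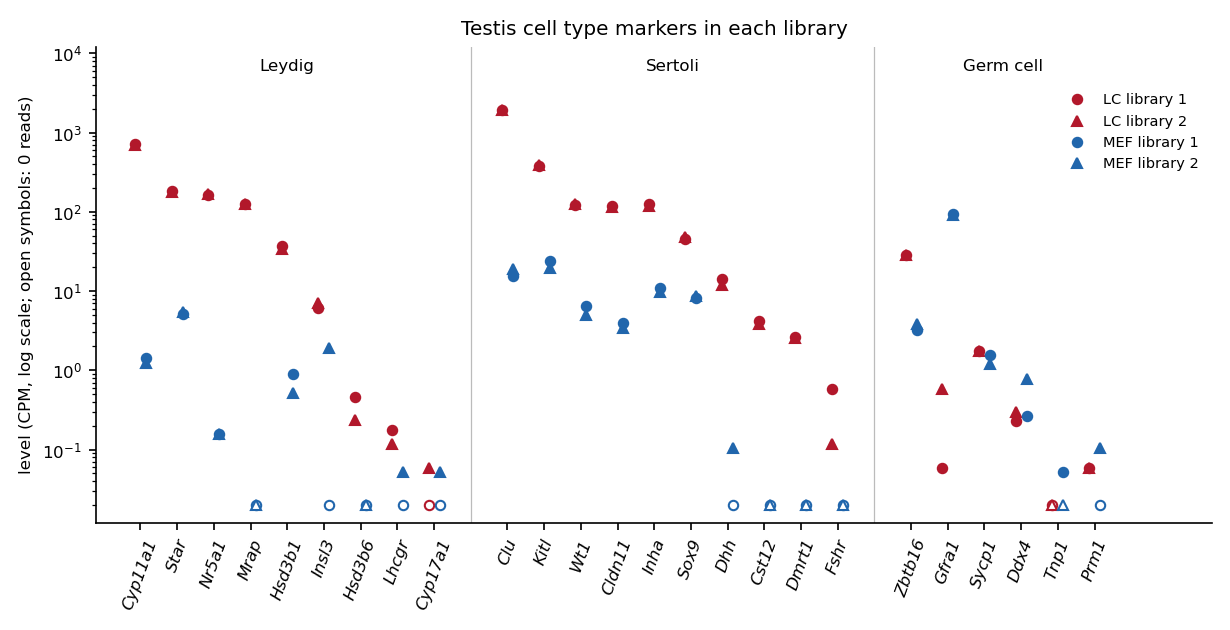
CPM (log scale) of Leydig, Sertoli and germ cell genes in each of the 2 LC (red) and 2 MEF (blue) libraries, with open symbols at the foot for 0 reads. Libraries of a group nearly coincide above 1 CPM, except for Insl3 in MEF; Cyp17a1, Lhcgr and Fshr stay below 1 CPM in both groups, and so do Tnp1 and Prm1 of spermatids.

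Genes that make and import cholesterol, the substrate of steroid synthesis, were mostly higher. Of 25 members tested, 24 were higher in LC, none lower, and Lipe, a hormone-sensitive lipase, was not called (median log2 fold change 1.94). With the imposed spread of 0.4, 16 were called higher. Msmo1, a sterol oxidase, stood at 205 and 211 CPM against 26.3 and 25.9 in MEF (log2 fold change 3.00 ± 0.06 SE, adjusted p = 8.92e-23). The high-density lipoprotein receptor Scarb1 rose by 1.54 ± 0.06 SE on the log2 scale. Summed over the list, levels were 2749 and 2734 CPM in LC and 732 and 746 in MEF.

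Sertoli cell genes were present beside the Leydig genes. Of 24 listed, 21 were tested, all 21 tested were higher in LC, and 20 by at least 2-fold (median log2 fold change 4.60, range 0.75 to 9.22). With the imposed spread of 0.4, 18 were called higher. The summed level of the list was 3867 and 3857 CPM in LC and 507 and 495 in MEF. Clu (12759), a secreted chaperone abundant in Sertoli cells and in many stressed cells, had the largest share of it, at 1939 and 1945 CPM against 15.7 and 18.7 (log2 fold change 6.82 ± 0.07 SE, adjusted p = 3.79e-27). Kitl, the growth factor for germ cells that carry Kit, stood at 377 and 392 CPM against 23.8 and 19.6. Ctsl, a lysosomal protease, rose by 1.12 ± 0.05 SE on the log2 scale. It stood at 738 and 709 CPM in LC and at 338.5 and 328.6 in MEF, where it made most of the summed level.

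Narrower markers of Sertoli cells had lower levels. Wt1 (22431), a transcription factor of Sertoli and other gonadal cells, stood at 122 and 124 CPM against 6.40 and 5.05 (log2 fold change 4.42 ± 0.11 SE). Cldn11 (18417), a claudin of the junctions between Sertoli cells, stood at 119 and 116 CPM against 3.93 and 3.38 (log2 fold change 5.00 ± 0.13 SE). Inha, the inhibin alpha subunit, reached 126 and 118 CPM, and Sox9, a transcription factor of Sertoli cell differentiation, 45.1 and 47.5 CPM against 8.12 and 8.54. Dhh, the hedgehog ligand, stood at 14.2 and 11.9 CPM with 448 reads against 2, a ratio of 250 with a counting interval of 69.0 to 2075. The narrowest markers with reads in LC and none in MEF were Cst12 at 4.17 and 3.83 CPM, at least 51.1-fold higher, Gata1 at 2.61 and 3.24 CPM, at least 37.3-fold, and Dmrt1, a male sex factor, at 2.61 and 2.59 CPM, at least 33.2-fold. The receptor for follicle-stimulating hormone, Fshr, had 12 reads in LC and none in MEF, and Rhox5 and Cst9 had 2 reads each in LC, so that not every defining Sertoli gene was present. Amh, the hormone of immature Sertoli cells, was at 1.57 and 1.59 CPM. Clu, Kitl, Inha and Wt1 are also known from other cells of the gonad, and what Sertoli cells add to the differences of the cultures was not tested.

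Germ cells left little trace. Of 15 germ cell genes in the files, 10 had too few reads to be tested. Among the spermatid genes, Tnp1 had no read in LC and 1 in MEF, Prm1 had 2 in each group and Prm2 1 in each. Ldhc, an enzyme of meiotic cells, had 4 reads in LC and 1 in MEF, and the meiotic genes Stra8 and Sycp1 stayed below 2 CPM in every library. Of 5 tested members, 1 was higher, 2 lower and 2 not called (median log2 fold change -0.37). Zbtb16, a zinc finger protein of spermatogonia that other cells also express, was higher in LC at 28.7 and 28.5 CPM against 3.25 and 3.85 (log2 fold change 3.01 ± 0.13 SE). Gfra1, a receptor of spermatogonial stem cells and of neural cells, was lower, at 0.0580 and 0.589 CPM against 93.5 and 92.0 in MEF. Odf2, also part of ordinary centrosomes, was at 71.1 and 71.1 CPM against 92.9 and 90.6.

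Macrophage genes were abundant in both cultures and mostly lower in LC. Of 22 tested members, 5 were higher, 15 lower and 2 not called (median log2 fold change -1.26), with a summed level of 5417 and 5055 CPM in LC and 9646 and 9739 in MEF. With the imposed spread of 0.4 the counts were 2 higher and 9 lower. The chemokine receptor Cx3cr1 fell from 582 and 598 CPM to 40.6 and 38.7 (log2 fold change -3.90 ± 0.06 SE), and the mannose receptor Mrc1 from 528 and 515 to 47.3 and 46.3. Lysozyme, Lyz2, the most abundant member, stood at 2709 and 2400 CPM in LC and 2632 and 2688 in MEF and was not called (adjusted p = 0.329). It was called as lower without LC replicate 1 (adjusted p = 0.00824) and with upper quartile scaling (0.0099). Itgam, an integrin of myeloid cells, was slightly higher in LC, at 798 and 782 CPM against 663 and 651. Marco, a scavenger receptor, was the member with the largest rise and stood at 126 and 130 CPM in LC, 4375 reads, and had 1 read in MEF, a ratio of 4893 with a counting interval of 878 to 193300. Cd163, another scavenger receptor, was also higher in LC, at 2.09 and 2.59 CPM against 0.629 and 0.677.

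Antigen presentation and other blood cells were sparse. Cd74, the invariant chain of MHC class II, rose from 3.25 and 3.23 to 69.3 and 71.2 CPM (log2 fold change 4.44 ± 0.13 SE), but the class II chain H2-Ab1 reached only 3.94 and 4.06 CPM. Of 4 tested members, 2 were higher and 2 lower; H2-DMb1 fell by 0.84 on the log2 scale, and the lower call of H2-DMa ended with DESeq2 (adjusted p = 0.0565). Of 11 genes of lymphocytes, mast cells and granulocytes in the files, 4 were tested and 3 were higher in LC, all below 10 CPM: the receptor Kit at 9.28 and 8.89 CPM, S100a8 at 1.74 and 2.00 and Cd4 at 2.09 and 2.35. Kit is not confined to blood cells, since germ cells carry it as well. Cd3e and Cd79a had 1 and 2 reads over LC, and the mast cell genes Cpa3 and Cma1 had 1 and 0. None of the 3 genes of red cells in the files was tested, with Hba-a1 at 0 reads in LC and 1 in MEF.

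Endothelial genes did not move as a set. Of 11 tested, 7 were higher, 2 lower and 2 not called (median log2 fold change 0.91), with 4 higher by DESeq2 and 3 higher and 1 lower at the imposed spread of 0.4. Cdh5, the cadherin of vessel walls, rose from 4.14 and 3.02 to 57.2 and 63.9 CPM (log2 fold change 4.08 ± 0.14 SE), and Eng, a receptor that fibroblasts also carry, from 54.7 and 51.7 to 188 and 197. Flt1, a receptor for vascular growth factor, fell from 134 and 134 to 4.06 and 3.94 CPM, and Kdr, another, from 18.9 and 19.6 to 9.16 and 10.4. Other defining genes of vessels were near 0 in LC: Pecam1 at 1.33 and 1.41 CPM, Tie1 with 16 reads, Cldn5 with 7 and Sox17 with fewer than 1.

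Contractile genes, which mark peritubular myoid cells in testis and activated fibroblasts in culture, were divided. Of 15 tested, 8 were higher, 6 lower and 1 not called (median log2 fold change 0.19); with the imposed spread of 0.4, 1 was higher and 2 lower. Mylk, the kinase of myosin light chain, went from 147 and 148 to 728 and 741 CPM (log2 fold change 2.32 ± 0.05 SE), and the filament protein Des from 9.86 and 11.4 to 28.7 and 28.7. Actg2, a smooth muscle actin, fell from 30.8 and 29.6 to 4.0 and 4.77 CPM (log2 fold change -2.78 ± 0.13 SE), and Acta2, the actin of myofibroblasts, fell by 1.40 on the log2 scale. Cald1 (1664 and 1712 CPM in LC) and Tpm1 (925 and 867) had the highest levels and were higher in LC by 0.60 ± 0.04 SE and 0.43 ± 0.05 SE on the log2 scale.

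Of 9 tested pericyte genes, 2 were higher and 5 lower (median log2 fold change -0.76), with 3 lower at the imposed spread of 0.4 and 7 with upper quartile scaling. The signalling regulator Rgs5 fell from 81.2 and 68.5 to 0.348 and 0.412 CPM (log2 fold change -7.60 ± 0.44 SE), Mcam from 92.3 and 92.7 to 13 and 11.9, and Pdgfrb by 1.64 on the log2 scale. The mitochondrial genes Ndufa4l2 and Cox4i2, which low oxygen is known to induce, rose, Ndufa4l2 from 2.78 and 2.55 to 154 and 155 CPM and Cox4i2 from 1.21 and 1.09 to 18.6 and 17.7.

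Genes of duct epithelium and mesothelium were low in LC. Of 9 tested epithelial genes, 2 were higher and 5 lower; Cldn4 at 4.06 and 3.53 CPM and Epcam at 1.16 and 1.41 CPM had no read in MEF, whereas Krt7 and Krt19 were below 0.3 CPM in LC. The cadherin Cdh1 fell from 21.1 and 19.7 to 3.31 and 3.83 CPM. Of 8 mesothelial genes, 7 were lower (median log2 fold change -4.20), among them Upk1b with 1 read against 115, Gpm6a with 1 against 98, and Msln at 2.44 and 1.53 CPM against 3.77 and 4.79. The single member higher in LC was Wt1, described above.

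The most abundant transcripts of the cultures overlapped. The 12 genes with the most reads took 8.22% and 8.24% of all reads in LC and 10.1% and 10.1% in MEF, and 7 genes were on both lists: Col1a1, Col3a1, Spp1, Col1a2, Bgn, Sparc and Fn1, all of the extracellular matrix. The leading gene of LC was C3 (12266), the central complement protein, with 1.06% and 1.13% of reads against 0.00939% and 0.0105% in MEF. In CPM it stood at 11490 and 12350 against 91.8 and 104 (log2 fold change 6.93 ± 0.06 SE, adjusted p = 3.90e-27). The leading gene of MEF was fibronectin, Fn1, with 1.63% and 1.64% of reads against 0.487% and 0.556% in LC (log2 fold change -1.50 ± 0.06 SE). Col12a1, a collagen of dense connective tissue, came next in MEF with 1.46% and 1.51% and held 0.0518% and 0.0597% in LC (log2 fold change -4.58 ± 0.06 SE). Thbs1, an adhesive glycoprotein that activates TGF-beta, held 1.11% and 1.04% of MEF reads and 0.146% and 0.148% of LC reads.

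The other collagens on these lists moved in both directions. Col1a1 held 0.807% and 0.844% of reads in LC and 1.34% and 1.38% in MEF, and Col1a2 was likewise lower in LC (log2 fold change -0.38 ± 0.05 SE). Col3a1 (0.784% and 0.779% of LC reads) and Sparc (0.603% and 0.619%) were higher in LC by 0.89 ± 0.05 SE and 0.78 ± 0.05 SE on the log2 scale. Fth1, the ferritin heavy chain, held 0.751% and 0.729% of LC reads and 0.238% and 0.246% in MEF, and Gapdh, a glycolytic enzyme often used as a reference gene, 0.642% and 0.592% against 0.178% and 0.180%, a log2 fold change of 1.94. Shares are before the scaling for composition, which raises LC relative to MEF in CPM. Bgn (adjusted p = 0.0905) and Eef1a1 (0.436) were not called, although Bgn was called as higher with DESeq2 (0.0285) and without LC replicate 1 (0.0206). Spp1, osteopontin, overlapped between the groups in share of reads, and its call as higher (log2 fold change 0.20) ended with DESeq2 (adjusted p = 0.0882), with upper quartile scaling (0.135), without LC replicate 1 (0.156) and without MEF replicate 2 (0.115). Lrp1 and Tnc complete the MEF list, both lower in LC.

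Counted per length of transcript, the order changed. Saa3 (20210), an acute-phase serum amyloid, had 25380 TPM in LC, rank 1, and 12.9 TPM in MEF. It was followed in LC by Fth1 (13320 TPM), Spp1 (13150), Gapdh (11680) and Bgn (7220), and C3 had rank 8 at 5737 TPM. In MEF, Spp1 led (14360 TPM), then Bgn (8507), Eef1a1 (7388), Col1a1 (6995) and Lyz2 (6271). Cyp11a1, at 822 TPM, had rank 161 in LC, below the matrix, ferritin and acute-phase transcripts that led the order.

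**Figure D3:**
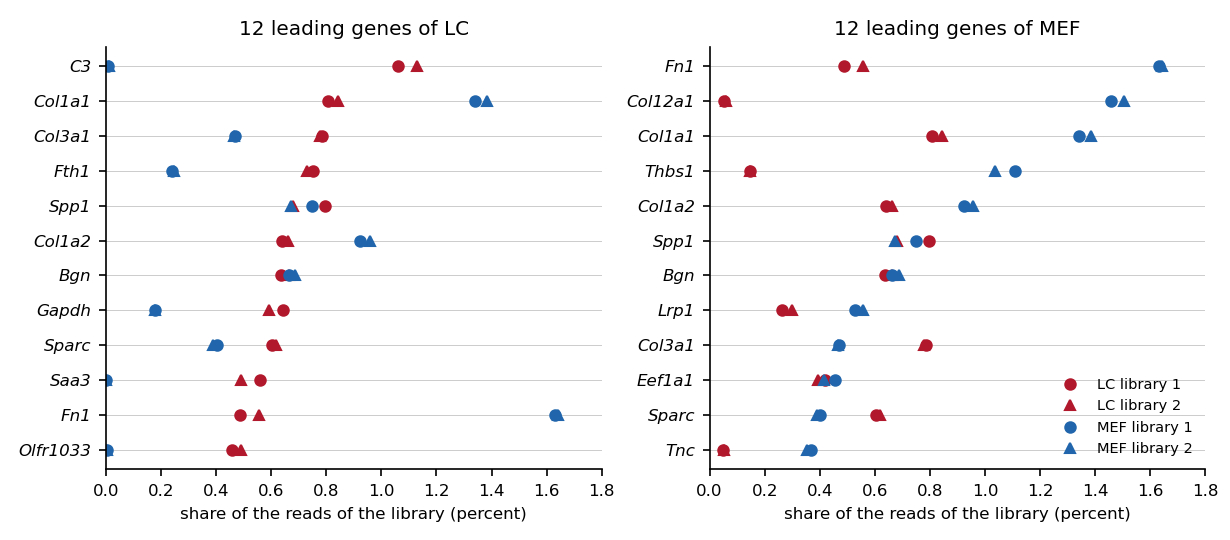
Share of all reads of a library (percent) for the 12 genes with the most reads in LC (left) and in MEF (right), with 1 symbol per library, red for LC and blue for MEF. C3, Saa3 and Olfr1033 are near 0 in MEF and Col12a1 and Tnc near 0 in LC, while Bgn and Spp1 overlap.

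The genes with the largest rises, among those of at least 20 CPM in LC, had varied functions. Beside Mrap they included Gm14569, with 2131 reads in LC and none in MEF (at least 794-fold), the protease inhibitor Serpinb2, the zinc carrier Slc30a2 (at least 472-fold), the RNA export factor Nxf3 (at least 431-fold), 2210407C18Rik (at least 402-fold), Marco, the histidine decarboxylase Hdc, the iron-scavenging lipocalin Lcn2, Saa3, the amino acid carrier Slc36a2 and the chemokine Ccl5. Serpinb2 stood at 463 and 478 CPM in LC and had 2 reads in MEF, a ratio of 9008 with a counting interval of 2493 to 74390. Saa3 stood at 6054 and 5355 CPM against 2.67 and 1.93 (log2 fold change 11.27, adjusted p = 1.85e-27), and Lcn2 at 358 and 335 CPM against 0.157 and 0.104. Hdc, which makes histamine, stood at 89.9 and 91.4 CPM with 1 read in MEF.

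The largest falls, among genes of at least 20 CPM in MEF, likewise had varied functions. Ptn, the growth factor pleiotrophin, fell from 667 and 667 CPM to 0.232 and 0.530 (log2 fold change -10.75, adjusted p = 5.78e-27). Ccn3, a matricellular protein, fell from 782 and 755 to 1.33 and 0.589 CPM, and Lgr5, a receptor for R-spondins that marks stem cells in several tissues, from 588 and 557 to 0.638 and 0.589. Agtr2, the fetal angiotensin receptor, fell from 226 and 199 to 0.0580 and 0.177 CPM. The choline carrier Slc5a7 (63.2 and 58.6 CPM), the lectin Chodl (49.6 and 46.6) and the cadherin Cdh8 (21.1 and 21.4) had no read in LC, at least 695-fold, 549-fold and 243-fold lower. The Iroquois factors Irx1 and Irx2 had 2 and 1 reads in LC against 3027 and 2064 in MEF. Pgm5, Gdf10 and Lrrc15, the last a surface protein of activated fibroblasts, had 2, 1 and 3 reads in LC and between 35.8 and 98.3 CPM in MEF.

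Fibroblast and matrix genes were mostly lower in LC but stayed abundant. Of 36 tested, 8 were higher, 27 lower and 1 not called (median log2 fold change -1.11), and 19 of the lower ones fell at least 2-fold. With the imposed spread of 0.4 the counts were 4 higher and 15 lower. Their summed level was 67370 and 70880 CPM in LC and 112200 and 113200 in MEF. Periostin, Postn, fell from 3260 and 3022 to 34.4 and 29.9 CPM (log2 fold change -6.61 ± 0.07 SE), and Thy1, a surface marker of fibroblasts, from 395 and 396 to 5.57 and 5.89 (log2 fold change -6.11 ± 0.11 SE). Elastin, Eln, fell by 5.51 ± 0.08 SE, Tnc by 2.67 ± 0.05 SE and lumican, Lum, by 3.99 ± 0.12 SE on the log2 scale. The type IV collagens of basement membrane ran the other way: Col4a1 went from 1420 and 1478 CPM to 4700 and 4989, and Col4a2 rose by 1.62 ± 0.05 SE. Dcn, Pdgfra, Col3a1, Sparc, Mfap5 and Pi16 were the other 6 members higher in LC.

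Embryonic and imprinted growth genes were lower in LC. Of 13 tested, 12 were lower, 11 of them at least 2-fold, and 1 was higher (median log2 fold change -3.45). Igf2, the fetal growth factor, fell from 1635 and 1723 to 31.8 and 32.4 CPM (log2 fold change -5.71 ± 0.06 SE, adjusted p = 6.99e-27). Hmga2, a chromatin protein of embryonic cells, fell by 4.75 ± 0.12 SE and the RNA-binding Igf2bp1 by 5.62 ± 0.25 SE, both on the log2 scale. Mest, an imprinted enzyme, fell from 47.6 and 47.2 to 1.39 and 1.24 CPM. Peg10, an imprinted gene derived from a retrotransposon, was the exception at 92.5 and 93.6 CPM against 12.5 and 13.5 (log2 fold change 2.84 ± 0.08 SE).

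The tested Hox genes, which record position along the body and limb axes, separated by cluster. Of 31 tested, 6 were higher, 24 lower and 1 not called (median log2 fold change -2.77), or 3 higher and 20 lower at the imposed spread of 0.4. All tested members of clusters A and B were lower in LC. Hoxa11 had 4.35 and 4.01 CPM in MEF and no read in LC, at least 47.7-fold lower. Hoxa9 fell from 15.2 and 14.6 to 0.232 and 0.235 CPM, and Hoxb9, the member with most reads in those clusters, from 99.4 and 97.0 to 6.55 and 5.77. Cluster C members fell too, with log2 fold changes from -2.00 for Hoxc5 to -0.93 for Hoxc4, and Hoxc13 was not called. The 6 higher members were the 6 tested members of cluster D. Hoxd1, with too few reads to be tested, went the other way, with 0 reads in LC and 11 in MEF. Hoxd10 stood at 43.1 and 44.7 CPM against 1.36 and 1.09 (log2 fold change 5.15 ± 0.20 SE), Hoxd11 at 15.7 and 16.2 against 0.367 and 0.677 (4.92 ± 0.32 SE) and Hoxd9 at 80.6 and 80.3 against 6.13 and 5.73 (3.76 ± 0.10 SE). Hoxd8, Hoxd4 and Hoxd3 rose by 1.26, 1.26 and 0.79 on the log2 scale, calls that ended with the imposed spread of 0.4 (adjusted p = 0.145, 0.151 and 0.547).

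**Figure D4:**
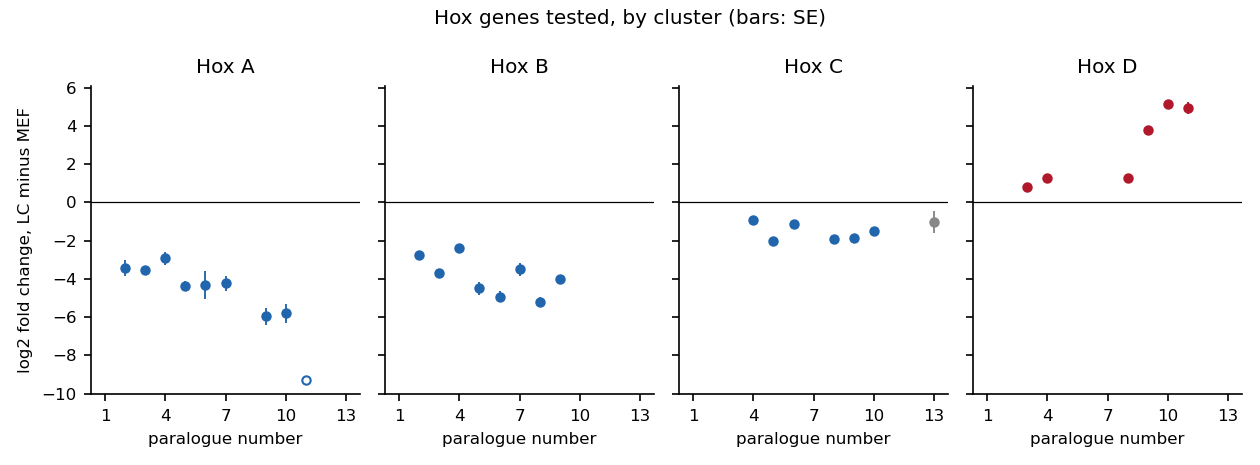
Log2 fold change (LC minus MEF, with SE) of 30 of the 31 tested Hox genes against paralogue number, 1 panel per cluster, red for higher, blue for lower and grey for not called; the open symbol is Hoxa11, with no read in LC and so no SE. Clusters A, B and C lie below 0, and cluster D lies above 0, highest at Hoxd10 and Hoxd11.

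Limb and trunk factors followed clusters A to C. Of 22 tested, 2 were higher, 18 lower and 2 not called (median log2 fold change -2.33). With the imposed spread of 0.4 the counts were 1 higher and 14 lower. Tbx15, a factor of limb and skin mesenchyme, fell from 74.9 and 74.7 to 0.232 and 0.118 CPM (log2 fold change -8.68 ± 0.54 SE), and Shox2, of limb and heart, had 3 reads in LC against 990. Lhx9, a factor of the early gonad, was higher in LC at 29.2 and 26.1 CPM against 1.99 and 1.15 (log2 fold change 4.14 ± 0.21 SE). Msx1, the other higher member, was at about 1 CPM, and its call ended with DESeq2 (adjusted p = 0.115) and without LC replicate 1 (0.174) or MEF replicate 1 (0.130).

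Genes of other embryonic tissues moved in both directions. Of 8 tested cartilage and bone genes, 6 were lower and 2 higher. Type II collagen, Col2a1, at 7.81 and 8.80 CPM in MEF, and Matn4, at 8.12 and 9.16, had 0 and 1 reads in LC, and Col11a1 fell from 779 and 803 to 163 and 179 CPM. Acan, the aggrecan core protein, was higher in LC at 38.6 and 39.1 CPM against 0.0524 and 0.156, and alkaline phosphatase, Alpl, at 80.1 and 80.5 against 0.524 and 0.833. Of 10 neural genes tested, 3 were higher and 6 lower. Tubb3 (39.4 and 37.5 CPM against 2.99 and 3.07) and S100b (4.75 and 4.36 against 0.472 and 0.416) were higher, whereas Gfap and Stmn2 had 3 and 0 reads in LC. Nes (72.9 and 72.6 CPM in LC) and Ncam1 (125 and 129) changed by less than 2-fold. Of 5 tested skeletal muscle genes, 2 were higher and 2 lower, none above 5 CPM: Pax3 and Tnnt3 were lower, and Actn2 and Ttn higher, the last a call that ended with DESeq2 (adjusted p = 0.101) and without LC replicate 2 (0.141) or MEF replicate 2 (0.177).

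Inflammatory genes were higher in LC. Of 28 cytokine, chemokine and prostaglandin genes tested, 23 were higher, 4 lower and 1 not called (median log2 fold change 1.75), or 16 higher and 1 lower at the imposed spread of 0.4, with a summed level of 8553 and 8358 CPM in LC and 2081 and 2074 in MEF. Cxcl5, which attracts neutrophils, stood at 1146 and 1213 CPM against 2.31 and 1.93 (log2 fold change 9.12 ± 0.16 SE, adjusted p = 2.15e-27). Ccl5, which attracts T cells and monocytes, stood at 202 and 191 CPM against 0.105 and 0.104 (log2 fold change 10.79 ± 0.70 SE), and Ccl6 at 1374 and 1269 against 29.4 and 28.0. Il6 rose from 1.94 and 2.45 to 32.6 and 34.4 CPM and Il1a from 0.315 and 0.156 to 78.3 and 82.2. The tumour necrosis factor gene, Tnf, was lower, at 13.2 and 11.5 CPM against 96.3 and 95.2 (log2 fold change -2.95 ± 0.08 SE), and Il33 fell by 0.69 on the log2 scale. Macrophages make many of these proteins, and the summed macrophage markers moved the other way, as given above; the part of these cells in the result was not tested.

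Of 14 complement genes tested, 10 were higher, 3 lower and 1 not called (median log2 fold change 1.96). With the imposed spread of 0.4 the counts were 7 higher and 2 lower. Among the higher ones, beside C3, factor B (Cfb) stood at 1210 and 1160 CPM against 2.99 and 2.76 (log2 fold change 8.69 ± 0.14 SE), and Serping1, the inhibitor of C1, at 1869 and 1839 against 65.8 and 66.7 (4.80 ± 0.05 SE). C4b, C2, C1s1 and C1ra rose by between 2.73 and 4.46 on the log2 scale. The lower ones were the anaphylatoxin receptors of myeloid cells, C3ar1 (77.8 and 77.8 CPM against 344 and 336) and C5ar1, and the lectin pathway protease Masp1 (2.84 and 3.06 against 10.7 and 10.1).

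Interferon-response genes were higher as well, 19 of 20 tested, with none lower and Ifit2 not called (median log2 fold change 2.38). With the imposed spread of 0.4, 15 were called higher. Irf7, a transcription factor that amplifies the response, stood at 282 and 280 CPM against 8.75 and 9.63 (log2 fold change 4.93 ± 0.08 SE, adjusted p = 2.44e-25), and Ifi44 at 72.3 and 70.3 against 2.94 and 2.86 (4.62 ± 0.13 SE). Gbp3 and Gbp2, guanylate-binding proteins, stood at 43.5 and 41.9 CPM against 3.46 and 2.86 and at 46.6 and 45.2 against 3.72 and 3.64. Oasl1, a protein of the oligoadenylate synthetase family, stood at 18.96 and 16.19 CPM against 0.734 and 1.51. The tetratricopeptide protein Ifit3 stood at 71.0 and 72.2 CPM against 12.4 and 12.7.

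Promoters of some interferon and cytokine genes are shown as examples, picked because they hold letters that such genes are known for. They do not stand for their lists. Each line is the 250 bases before the start site on the strand of the gene, from RefSeq on the assembly GRCm38.p6, matched by gene symbol. Capitals mark TTTCNNTTT, from the core of the interferon-stimulated response element, or GGGANNTTC, from a site for NF-kappaB, on either strand. The genes shown are those with a match that rose most, 3 from the interferon list and 2 from the cytokine list.
Ifi44, chr3:151749911-151750160, minus strand: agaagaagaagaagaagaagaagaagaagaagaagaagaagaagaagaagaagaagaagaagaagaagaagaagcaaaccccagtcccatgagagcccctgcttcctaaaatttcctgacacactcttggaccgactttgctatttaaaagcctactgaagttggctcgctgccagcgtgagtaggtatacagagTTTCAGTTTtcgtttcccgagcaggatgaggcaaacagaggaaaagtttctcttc
Oasl1, chr5:114922990-114923239, plus strand: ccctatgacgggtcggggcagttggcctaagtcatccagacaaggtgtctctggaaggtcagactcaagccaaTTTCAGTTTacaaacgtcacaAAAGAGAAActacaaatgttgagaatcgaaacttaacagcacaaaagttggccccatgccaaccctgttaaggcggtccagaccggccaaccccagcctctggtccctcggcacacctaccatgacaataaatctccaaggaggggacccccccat
Gbp3, chr3:142559794-142560043, plus strand: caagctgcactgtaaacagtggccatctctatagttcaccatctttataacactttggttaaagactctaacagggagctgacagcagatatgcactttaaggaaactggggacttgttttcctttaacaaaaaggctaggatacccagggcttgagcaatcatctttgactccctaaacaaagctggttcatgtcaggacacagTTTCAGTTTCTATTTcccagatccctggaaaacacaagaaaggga
Il6, chr5:30012864-30013113, plus strand: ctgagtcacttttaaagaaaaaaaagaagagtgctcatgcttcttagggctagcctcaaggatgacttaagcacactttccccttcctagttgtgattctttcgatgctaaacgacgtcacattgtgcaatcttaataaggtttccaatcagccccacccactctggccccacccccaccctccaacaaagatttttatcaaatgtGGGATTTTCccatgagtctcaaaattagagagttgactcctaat
Cxcl1, chr5:90890995-90891244, plus strand: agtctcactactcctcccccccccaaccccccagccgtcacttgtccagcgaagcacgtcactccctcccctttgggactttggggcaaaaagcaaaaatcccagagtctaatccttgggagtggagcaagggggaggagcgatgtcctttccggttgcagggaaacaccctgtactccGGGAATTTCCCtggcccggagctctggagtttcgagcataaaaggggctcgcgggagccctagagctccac

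In Ifi44 the match TTTCAGTTT begins 55 bases before the start site. Oasl1 held the same letters at 177 bases and AAAGAGAAA, a match on the other strand, at 156 bases. In Gbp3 the capitals are 2 overlapping matches, TTTCAGTTT and TTTCTATTT, which begin at 45 and 39 bases. Il6 held GGGATTTTC at 44 bases. In Cxcl1 the run in capitals is a match on each strand, GGGAATTTC from 71 and GAATTTCCC from 69 bases, which overlap.

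Of 15 interferon-list genes with a promoter in the table, 11 held TTTCNNTTT (73.3%), against 10.8% of all 27025 genes with a promoter. Of 21 cytokine-list genes, 5 held GGGANNTTC (23.8%), against 3.70% of all genes, while none of 8 complement genes did. For the other motifs searched on both strands, AAGGTCA, a site for Nr5a1, was in 1 of 12 steroid synthesis genes, 1 of 19 Leydig identity genes and 0 of 15 Sertoli genes (4.70% of all genes). TCACNCCAC, part of the sterol response element, was in 1 of 17 cholesterol genes (1.22% of all), and TTTGAA, part of a cell cycle element, in 6 of 25 cell cycle genes (18.3% of all). A match is a string of letters in this window, and no binding was measured.

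Antioxidant and glutathione genes were higher throughout. All 25 tested were called higher in LC, 13 at least 2-fold (median log2 fold change 1.01), and the count was 9 with the imposed spread of 0.4. Gsta3, a glutathione transferase that also isomerises steroids, stood at 110 and 106 CPM against 0.419 and 0.156 (log2 fold change 8.52 ± 0.42 SE). Gstm1, another transferase with close relatives, stood at 1356 and 1389 CPM against 52.5 and 57.0 (4.65 ± 0.06 SE), and the mitochondrial superoxide dismutase Sod2 rose by 3.88 ± 0.06 SE on the log2 scale. Gss, the glutathione synthetase, lay near the threshold (log2 fold change 0.21, adjusted p = 0.0467), and its call ended in most alternatives, among them with DESeq2 (0.281), with upper quartile scaling (0.294), with the replicate number as a block (0.0519), with only the 4 LC and MEF libraries (0.0572) and without LC replicate 1 (0.164), LC replicate 2 (0.0859), MEF replicate 1 (0.227) or either CiLC library (0.0558 and 0.0580).

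Cell cycle genes were lower in LC without exception among the 30 tested (median log2 fold change -1.27, range -2.27 to -0.42), and 23 fell at least 2-fold. The cyclin Ccnb2 fell from 18.8 and 20.5 to 4.17 and 3.94 CPM (log2 fold change -2.27 ± 0.13 SE) and the mitotic kinase Aurkb from 24.9 and 26.4 to 7.94 and 7.06. Mki67, the common marker of dividing cells, fell by 1.51 ± 0.06 SE on the log2 scale. With the imposed spread of 0.4, 8 of the 30 were called, and DESeq2 called 29. Inhibitors of the cycle were lower too: of 19 senescence and p53 genes, 15 were lower, 3 higher and 1 not called (median log2 fold change -0.93), and 4 and 2 with the imposed spread of 0.4. Cdkn2a fell from 21.8 and 19.99 to 1.45 and 0.824 CPM, Perp, a p53 target, from 3.20 and 3.23 to 0.174 and 0.235, and Cdkn1a by 1.00 ± 0.05 SE on the log2 scale. The secreted member Igfbp7, which binds insulin-like growth factors, was higher in LC at 1503 and 1423 CPM against 212 and 208.

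Of 22 TGF-beta response genes, 10 were higher, 9 lower and 3 not called (median log2 fold change 0.04), a balance that turned to 9 and 10 with upper quartile scaling and to 1 and 4 with the imposed spread of 0.4. Ccn1, a matricellular protein, rose by 0.87 ± 0.04 SE on the log2 scale. Tgfbi fell from 260 and 262 to 33.7 and 34.7 CPM and Bmp4, a ligand of the family, from 81.8 and 77.0 to 13.3 and 12.7. Lysosomal genes were as evenly divided, 11 higher and 11 lower of 24, or 8 and 12 with upper quartile scaling and 1 each with the imposed spread of 0.4. The protease Ctsh rose from 31.4 and 28.9 to 247 and 235 CPM, Gpnmb, a glycoprotein of phagocytes, fell from 180 and 199.9 to 41.9 and 38.4, and the acid lipase Lipa fell by 1.11 on the log2 scale.

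The 4 Y-linked genes listed were higher in LC, with log2 fold changes from 1.59 to 1.97 and a summed level of 136 and 139 CPM against 41.7 and 36.3 in MEF. Ddx3y, an RNA helicase, stood at 49.7 and 55.5 CPM against 15.1 and 11.7, and Eif2s3y, a translation factor, at 43.8 and 40.2 against 12.6 and 11.9. The labels do not give the sex of the embryos, and its part in the other results was not tested.

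**Figure D5:**
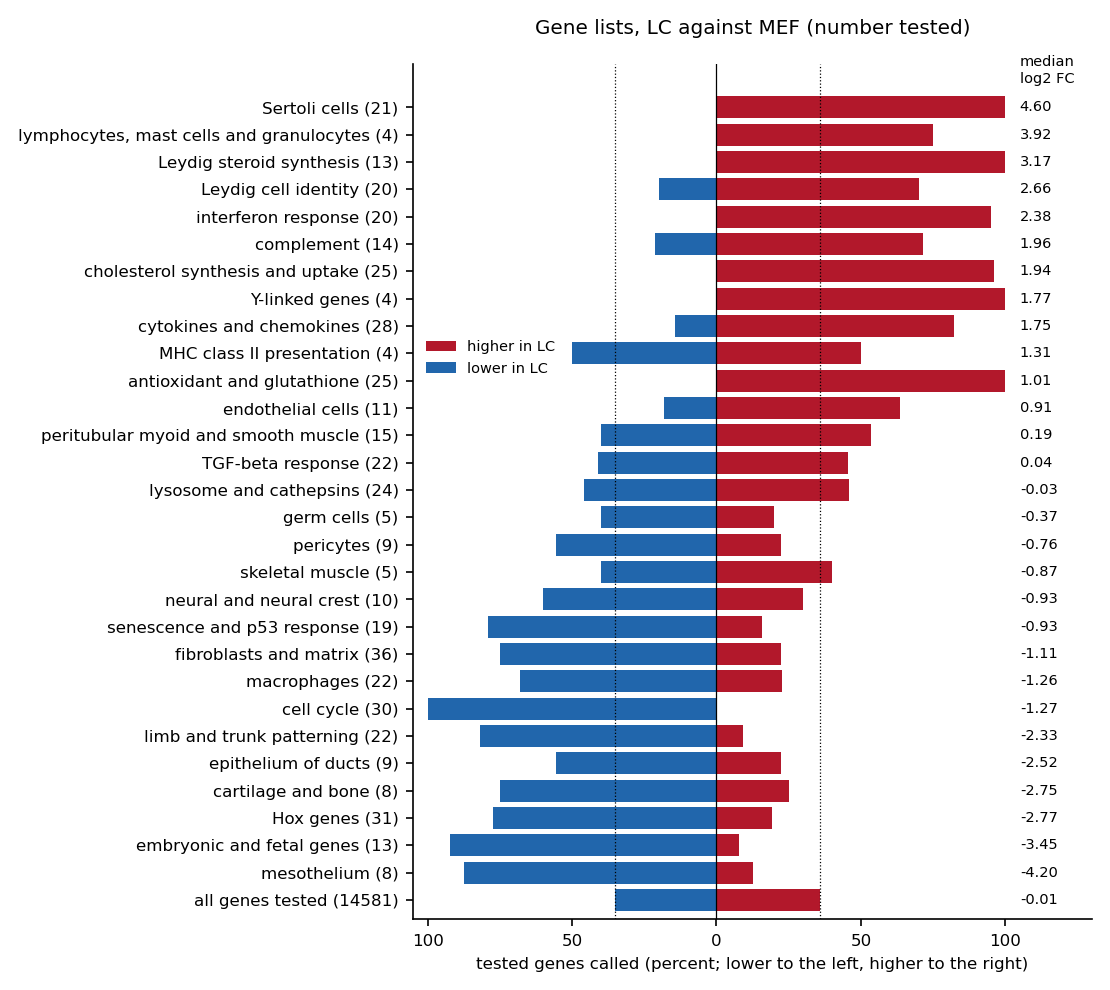
Percent of the tested members of each gene list called higher (red, to the right) and lower (blue, to the left) in LC, with the number tested in brackets and the median log2 fold change at the right; dotted lines mark the shares over all 14581 genes tested (35.7% and 35.0%). Sertoli, steroid synthesis and antioxidant genes fill the right side, and cell cycle genes the left.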

How the data were processed

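The authors deposited, per the file headers, a read count for each of 18305 genes by NCBI gene number in each library. Reads were aligned with HISAT to mm9, per the submitters' processing notes; their versions, the gene models, the read counter and any use of strand were not given in the sources used here. Symbols were found for 18179 genes in a RefSeq table of GRCm38.p6. Between 32.4% and 32.8% of the deposited values were not whole (49 of 155 named genes had such a value). The deposited values were therefore taken to be estimated counts, in which the authors' counting can split a read between genes, so genes with near-identical copies or overlapping partners are less certain.

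Estimated counts were rounded and tested with edgeR 4.0.16 (R 4.3.3): filterByExpr with a minimum count of 10 (3724 genes removed), TMM scaling, a quasi-likelihood fit of all 6 libraries with group as the only term (3 residual degrees of freedom), two-sided tests and Benjamini-Hochberg adjustment. The common biological coefficient of variation was 3.16%. The procedure was tested on counts simulated with the spread fitted here, which cannot show whether calls hold at the spread between animals. TPM used the longest RefSeq-linked transcript of each gene in GENCODE. A gene at 0 has a floor of 3 reads over its group. Alternatives were DESeq2 1.42.0, other filters, scaling, libraries and assumed spreads. Named genes were the 6 markers, the 12 largest changes in each direction, the 12 genes with most reads in each group, the extremes of 31 gene lists and a few Leydig genes; other genes named were chosen after their values were seen. Members and lists were chosen with earlier results of these data known. Some genes are not reported here.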

Additional observations from a re-analysis of the deposited data

How the results depend on the processing

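The counts of genes called moved by over 1.5 times in 1 setting only, an assumed biological coefficient of variation of 0.4 for every gene, with 1450 genes higher and 1058 lower, all of the lower ones at least 2-fold (1058). The spread between these libraries was far smaller, and spread between animals was not measured. With single libraries left out, the counts ran from 4752 to 5149 higher and 4659 to 5165 lower, and from 2066 to 2169 and 1849 to 1927 at least 2-fold. The 12 leading genes of LC held 8.22% to 8.24% of reads with a library left out and 8.25% with only genes with a symbol counted; those of MEF held 10.06% to 10.09%. With upper quartile scaling 42.2% of calls were higher, against 50.5%. Same-numbered LC and MEF libraries deviated together only weakly over 10140 genes (correlation 0.0844), so the numbers were not read as pairs; with the replicate number as a block, 5187 genes were higher and 5107 lower. No called gene among those named changed direction. Bgn and Eef1a1, not called, turned to log2 fold changes of -0.01 and -0.06 with upper quartile scaling, Eef1a1 to -0.02 without MEF replicate 2 and Lyz2 to 0.03 without LC replicate 2. In all, 30 of 151 tested gained or lost a call in some setting, 27 of them at 0.4: Col1a1, Col3a1, Spp1, Col1a2, Sparc, Fn1, Lrp1, Nr4a1, Igf1, Ctsl, Des, Tpm1, Cald1, Odf2, Itgam, H2-DMb1, H2-DMa, Kdr, Msln, Ttn, Actn2, Nes, Ncam1, Msx1, Ccn1, Il33 and Lipa (adjusted p from 0.061 to 0.998). Depth limits genes under about 10 reads a group, such as Lhcgr and Cyp17a1.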

Other observations

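Enzymes of glycolysis, a set chosen after the values of Gapdh were seen and so given with no test, were higher in LC. For all 14 genes chosen, from hexokinases to lactate dehydrogenase, both LC libraries lay above both MEF libraries in CPM. The difference ran from 1.03-fold for Pfkm to 7.93-fold for Pfkl, with a median of 3.88-fold. Pfkm had 798.5 and 773 reads in LC against 845.2 and 864.2 in MEF, so it was higher only after scaling. Over all 14581 genes tested, both LC libraries lay above both MEF libraries for 41.8%. Ldha, which makes lactate, stood at 2266 ± 3.98 CPM in LC and 356 ± 4.74 in MEF (SD, n = 2), Eno1 at 2732 ± 44.5 and 475 ± 1.27, and Pkm at 3484 ± 54.3 and 1405 ± 42.2. Lactate from Sertoli cells is known to feed germ cells, and Gapdh is a common reference gene.

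Olfr1033, labelled as an olfactory receptor, was among the 12 genes with the most reads in LC, and 2 unrelated genes, Wdr92 and Zbtb8b, moved with it. Olfr1033 stood at 4944 and 5355 CPM in LC and 28.6 and 24.7 in MEF, Wdr92 at 4395 ± 84.7 and 31.6 ± 0.285, and Zbtb8b at 2403 ± 74.2 and 11.5 ± 0.792 (SD, n = 2). Within a library their reads kept a similar ratio although the level of Wdr92 differed 139-fold and that of Zbtb8b 210-fold between the groups. Wdr92 had 0.901 and 0.81 reads per read of Olfr1033 in LC and 1.09 and 1.28 in MEF, and Zbtb8b had 0.475 and 0.459 in LC and 0.38 and 0.486 in MEF. All 4 values of Olfr1033 were not whole. The 3 genes were picked after their values were seen, and whether their reads come from other transcripts was not tested.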
